A study of Homo sapiens with 2 samples.

Results

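The bodies of very long genes are described here: 306 protein-coding genes of 500 kb or more on chromosomes 1-22, out of 19111 protein-coding genes annotated there. They were taken from GENCODE 44 by the length of the gene alone, and 3 further genes of that length were left out because they overlap the stretch of chromosome 15 from 23 to 48.65 Mb, which no comparison used. The nucleosome positions are those the authors called by MNase-seq, in which micrococcal nuclease digests the DNA between nucleosomes and the protected fragments are sequenced. The cells were ARPE-19, an established human line from the retinal pigment epithelium, in normal culture and in interphase. The labels give 2 samples, batch 1 and batch 2, that form 1 group with no treated or control arm, and 1 list was deposited that names neither. All values below therefore describe a single map, its read depth is unknown, and how far the batches differ could not be measured. The list holds no expression values, so the labelled cell type could not be set against its markers.

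Very long genes are almost entirely intron. Many of them encode adhesion molecules, receptors and scaffolds of neurons, and several span common fragile sites, which are regions that replicate late and tend to break when DNA replication is slowed. A nucleosome is a stretch of DNA wound around histone proteins, and neighbouring nucleosomes lie at a typical distance, the repeat length, that is the wrapped DNA plus the linker. In mammalian genes nucleosomes are known to sit preferentially over internal exons, which are usually richer in G and C than the introns around them, and on active genes a nucleosome is placed just downstream of the start site.

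The members had a median length of 728 kb, from 501 kb for ANO5, a calcium-dependent membrane protein of muscle, to 2473.5 kb for RBFOX1, a regulator of splicing. ANO5, the shortest member, had 0.561 positions per kb, and DIAPH3, just under the limit at 498 kb, had 0.415. The median member had 17 exons in its main transcript, a longest intron of 197 kb and 0.847% of its length in exons. The 7584 protein-coding genes of 20-100 kb that overlap no member, used for comparison, had a median of 10 exons, a longest intron of 12.2 kb and 7.97% of their length in exons. The median GC content was 38.2% in the long genes and 43.7% in the shorter ones. Of the members, 8 overlap another member, so their bases are shared.

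Reference sequences (hg38) show what lies under a position that falls within 10 bp of the middle of an internal coding exon. They come from the longest members in which such an exon was found, namely CNTNAP2 and PTPRD (an adhesion protein and a receptor phosphatase of neurons), DLG2 (a synaptic scaffold), EYS (a matrix protein of photoreceptors) and ROBO2 (a receptor that guides axons). CTNNA3 also has such an exon, which fills its whole window and is not shown. Each sequence shows 201 bases centred on the position, on the strand of the gene, 5′ to 3′, with the exon in capitals and the introns in lower case. The exon of CNTNAP2 is exon 20 of 24 (134 bp, chr7:148229607-148229807 for the window, plus strand) and that of PTPRD is exon 36 of 46 (124 bp, chr9:8404495-8404695, minus strand). For DLG2 it is exon 17 of 28 (157 bp, chr11:83833586-83833786, minus strand), for EYS exon 29 of 43 (151 bp, chr6:64388668-64388868, minus strand) and for ROBO2 exon 25 of 28 (174 bp, chr3:77634866-77635066, plus strand).
CNTNAP2: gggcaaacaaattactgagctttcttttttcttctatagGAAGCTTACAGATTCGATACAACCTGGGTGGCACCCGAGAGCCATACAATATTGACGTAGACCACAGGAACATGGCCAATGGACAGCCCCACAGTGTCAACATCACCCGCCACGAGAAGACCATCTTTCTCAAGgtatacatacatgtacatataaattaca
PTPRD: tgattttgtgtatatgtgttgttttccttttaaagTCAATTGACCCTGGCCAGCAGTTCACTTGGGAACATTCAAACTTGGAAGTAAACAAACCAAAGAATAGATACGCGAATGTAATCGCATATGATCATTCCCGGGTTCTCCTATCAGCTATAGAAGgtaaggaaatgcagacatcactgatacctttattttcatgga
DLG2: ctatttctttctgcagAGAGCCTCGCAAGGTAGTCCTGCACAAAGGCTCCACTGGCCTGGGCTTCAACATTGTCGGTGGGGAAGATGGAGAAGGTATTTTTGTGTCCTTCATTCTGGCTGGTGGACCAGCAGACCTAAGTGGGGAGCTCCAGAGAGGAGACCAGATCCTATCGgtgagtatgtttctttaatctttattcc
EYS: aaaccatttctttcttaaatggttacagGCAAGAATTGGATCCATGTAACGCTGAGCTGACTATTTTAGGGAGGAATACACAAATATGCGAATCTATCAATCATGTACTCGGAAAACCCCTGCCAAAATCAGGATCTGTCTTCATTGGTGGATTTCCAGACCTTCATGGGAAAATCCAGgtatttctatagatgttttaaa
ROBO2: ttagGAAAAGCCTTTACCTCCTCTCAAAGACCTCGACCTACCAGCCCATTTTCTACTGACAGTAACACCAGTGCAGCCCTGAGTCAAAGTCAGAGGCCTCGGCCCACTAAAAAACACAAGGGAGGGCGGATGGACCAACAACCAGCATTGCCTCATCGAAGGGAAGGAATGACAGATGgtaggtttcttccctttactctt
The windows had GC contents of 43.8% in CNTNAP2, 37.8% in PTPRD, 49.8% in DLG2, 37.8% in EYS and 49.8% in ROBO2.

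Windows of 150 bases from 2 genes show sequence at the extremes of density, with every G and C in capitals. CADM2, an adhesion protein of synapses, had the fewest positions per kb of all members, and SORCS2, a sorting receptor, had the most outside chromosome 15. For each gene, a window is centred on the position nearest the middle of the gene (chr3:85516028-85516177 and chr4:7467657-7467806). For SORCS2, another is centred on the middle of its longest stretch without a position (chr4:7387767-7387916). All are given on the plus strand.
CADM2, position: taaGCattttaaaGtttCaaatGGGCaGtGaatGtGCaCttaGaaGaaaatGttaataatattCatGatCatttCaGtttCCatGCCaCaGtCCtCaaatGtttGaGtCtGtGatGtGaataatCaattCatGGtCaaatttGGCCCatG
SORCS2, position: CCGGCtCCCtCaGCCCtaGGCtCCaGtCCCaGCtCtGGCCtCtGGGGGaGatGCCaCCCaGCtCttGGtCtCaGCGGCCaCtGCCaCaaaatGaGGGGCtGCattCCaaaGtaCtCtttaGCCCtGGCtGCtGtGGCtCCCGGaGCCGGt
SORCS2, gap: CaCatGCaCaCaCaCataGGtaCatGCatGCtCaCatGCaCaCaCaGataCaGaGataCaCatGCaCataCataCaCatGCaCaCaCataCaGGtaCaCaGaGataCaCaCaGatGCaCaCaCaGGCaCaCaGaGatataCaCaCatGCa
The windows around a position were 34.0% GC in CADM2 and 64.0% in SORCS2. The window in the gap of SORCS2 was 44.7% GC. In CADM2 the order was the opposite, as the middle of its longest gap, not shown, was 38% GC.

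Long gene bodies held fewer positions per kb than genes of 20-100 kb. Summed over chromosomes 1-22, the long genes had 214732 positions in 254 Mb of determined sequence, or 0.846 per kb, and the shorter genes 335374 in 344 Mb, or 0.975 per kb. Genes of 100-500 kb lay between them at 0.951 per kb, and sequence outside every gene had 0.927. On the 21 chromosomes that carry a long gene (chromosome 19 has none), the density of long genes ran from 0.619 per kb on chromosome 6 to 1.197 on chromosome 9 and 1.69 on chromosome 15, and that of shorter genes from 0.781 on chromosome 20 to 1.81 on chromosome 15. The log2 ratio of long to shorter genes was -0.17 ± 0.13 (SD, n = 21 chromosomes) and was below 0 on 19 of 21, chromosomes 16 and 17 being the exceptions (sign-flip permutation test over chromosomes, two-sided, p = 7e-05, adjusted 0.000112 over 8 tests). Chromosomes are not biological replicates, so this p-value describes how evenly the difference ran along the genome in 1 list.

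**Figure D1:**
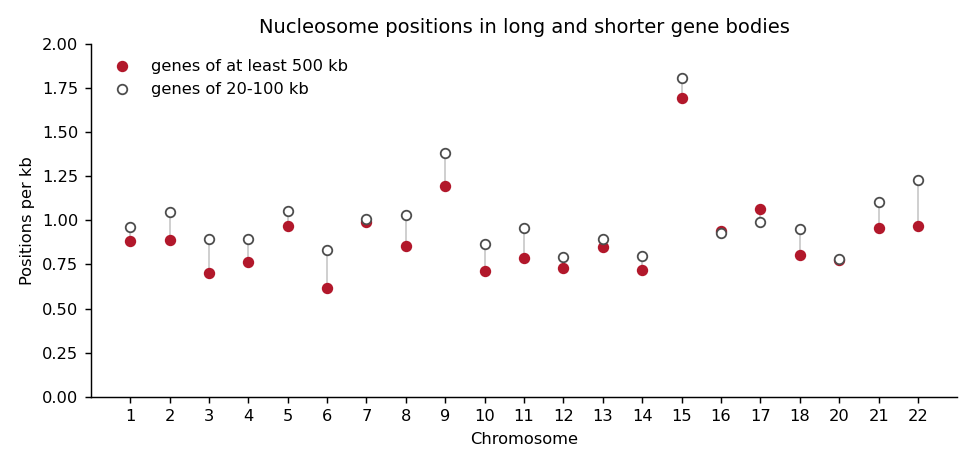
Positions per kb (vertical axis) on each chromosome that carries a long gene (horizontal axis), with genes of at least 500 kb as filled points and genes of 20-100 kb as open points, joined by a line. The filled point lies below the open one on 19 of 21 chromosomes, and both are highest on chromosome 15 (1.69 and 1.81 per kb).

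The direction of this difference depended on base composition. Each base was given the density of all bases with the same GC content in the 200 bp around it, and the sum over a region is its GC expectation. Long genes had 1.06 times their GC expectation and genes of 20-100 kb 0.867 times theirs, so the log2 ratio turned to 0.23 ± 0.12 (SD, n = 21 chromosomes) and was above 0 on 20 of 21 (sign-flip permutation test, p = 1e-05, the smallest value possible). It also rested on sums over all bases: taking the median gene of each kind on each chromosome, the log2 ratio was -0.024 (permutation p = 0.608). Against sequence outside every gene it was -0.066 (permutation p = 0.125).

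Long genes were also sparser than their immediate surroundings, as were shorter genes. The median log2 ratio of body to flanks was -0.14 over the 306 members, -0.20 over genes of 100-500 kb and -0.21 over genes of 20-100 kb. The flanks were taken from 10 to 260 kb outside each gene on both sides, without other members. Summed over members, bodies had 0.844 and flanks 0.938 positions per kb, with GC contents of 38.8% and 39.98%. The log2 ratio was -0.15 ± 0.091 (SD, n = 21 chromosomes), below 0 on 20 of 21 (sign-flip permutation test, p = 1e-05, adjusted 4e-05). With the GC expectation in place of the number of bases it was 0.0014 ± 0.083, above 0 on 12 of 21 (permutation p = 0.941).

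Gene by gene, 189 of 306 members had fewer positions per kb than their flanks, and 223 of 306 had a lower GC content than their flanks. The share with fewer positions per kb than the flanks was 61.8% among the members and 62.7% over all genes of at least 20 kb. Of those 11023 genes, 6082 had a lower GC content than their flanks. Past a fold of 1.5, 41 members (13.4%) were lower and 11 (3.59%) higher than their flanks, against 29.7% lower and 9.76% higher among all 11022 protein-coding genes of at least 20 kb with usable flanks. The median member held 645.5 positions and the median gene of that whole set 54, and a ratio of fewer positions has a larger counting error. Of the 41 members lower past the fold, 39 had a lower GC content than their flanks. The same held for 2567 of the 3269 genes of at least 20 kb that were lower past it. With the GC expectation, 14 members were lower and 8 higher past the fold, against 20.9% and 6.18% of all genes of at least 20 kb. Lower by both measures were 10 members, and 2033 of those 11022 genes.

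Density differed widely among members, from 0.364 per kb in CADM2 to 2.01 per kb in ALDH1A2, which makes retinoic acid. The middle 50% of members lay between 0.610 and 1.03 per kb, with a median of 0.8002. The members with the highest densities were ALDH1A2 (2.01 per kb, 1096 positions), SORCS2 (2.01, 1105 positions), the nuclear receptor RORA (1.99), ASTN2 of migrating neurons (1.91), the semaphorin receptor PLXNA4 (1.88), the matrix protein THSD4 (1.88), the vesicle tethering subunit TRAPPC9 (1.87), CSMD2 (1.83), the neuronal transcription factor MYT1L (1.77) and AGBL1 (1.77), an enzyme of the tubulin deglutamylase family. Counting error was small at this size: the exact 95% Poisson interval, which covers counting error only, was 1.90 to 2.14 per kb for ALDH1A2. Of these 10, ALDH1A2, RORA, THSD4 and AGBL1 lie on the long arm of chromosome 15, where flanks were dense as well, at 1.58, 1.86, 1.33 and 2.19 per kb. In hg38, ALDH1A2 (ENSG00000128918) spans chr15:57953424-58497866 on the minus strand and SORCS2 (ENSG00000184985) spans chr4:7192538-7742836 on the plus strand. SORCS2 was the most GC-rich of the 10, at 53.7%, and its flanks had 1.23 per kb.

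At the other end were CADM2 (0.364 per kb, 406 positions), DPYD, which breaks down pyrimidines (0.367), the glycosyltransferase MGAT4C (0.384), the protocadherin PCDH15 of photoreceptors and hair cells (0.392), the RNA-binding protein KHDRBS2 (0.409), the presynaptic protein RIMS1 (0.410), the receptor phosphatase PTPRK (0.417), the calcium sensor SYT1 of synaptic vesicles (0.418), EYS (0.426) and the adhesion protein NEGR1 (0.426). In hg38, CADM2 (ENSG00000175161) spans chr3:84958989-86074429 on the plus strand. The GC contents of these 10 lay between 34.0 and 35.6%. The flanks of DPYD had 0.670 per kb and those of CADM2 0.564, whereas PCDH15 (0.396), MGAT4C (0.388) and SYT1 (0.398) lay in flanks as sparse as themselves.

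Across the 306 members, density and GC content rose together, with a Pearson r of 0.72 and a Spearman rho of 0.77. Density and the density of the flanks had an r of 0.67. Density and gene length had an r of -0.16. These are descriptions over genes of 1 list that share a chromosome and a region with one another, and no test was made. After division by the GC expectation, the r with GC content was -0.11. Some members on chromosomes 9 and 15 stood high for their GC content. PTPRD, at 35.5% GC, had 0.884 per kb and 1.65 times its GC expectation, and AGBL1, at 39.1%, had 2.10 times its expectation. The lowest value on this scale was 0.402 times the expectation, in PRKCA, the gene of protein kinase C alpha.

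**Figure D2:**
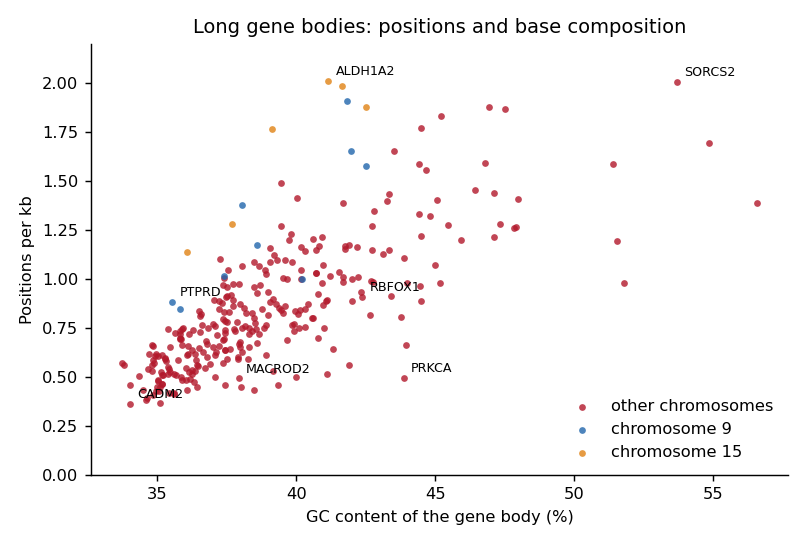
Positions per kb (vertical axis) against GC content of the gene body in percent (horizontal axis), 1 point per long gene, with chromosomes 9 and 15 in their own colours. The points rise from CADM2 at 34.0% GC and 0.364 per kb towards SORCS2 at 53.7% and 2.01 per kb, and PRKCA lies below genes of its GC content.

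The 10 longest genes lay in the lower and middle part of this range. RBFOX1 had 0.910 positions per kb (2251 positions), the neurexin relative CNTNAP2 0.913 (2104), PTPRD 0.884 (2032), DLG2 0.654 (1422) and the membrane protein CSMD1 0.7997 (1647). MACROD2, which removes ADP-ribose from proteins, had 0.493 (1015), EYS 0.426 (847), the lipoprotein receptor relative LRP1B 0.559 (1061), the catenin CTNNA3 0.534 (989) and PCDH15 0.392 (716). Of these 10, 9 were below their flanks, with log2 ratios from -0.53 in MACROD2 to -0.02 in PCDH15, and CSMD1 was above them at 0.14.

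The widest contrasts with the flanks were found in PRKCA, with 0.496 per kb in the body and 1.65 in the flanks (log2 ratio -1.73), in SUPT3H, a transcription cofactor subunit (0.471 and 1.21, -1.35), in EXOC6B of the exocyst complex (0.628 and 1.50, -1.25), in the transcription factor SOX6 (0.609 and 1.39, -1.19) and in FAF1, a ubiquitin-binding regulator of cell death (0.591 and 1.33, -1.17). In hg38, PRKCA (ENSG00000154229) spans chr17:66302613-66810743 on the plus strand. With the GC expectation its log2 ratio was still -1.48 and that of FAF1 -0.70, while those of SUPT3H, EXOC6B and SOX6 were -0.44, -0.28 and -0.03. The members furthest above their flanks were SNX29, a sorting nexin (1.21 and 0.720 per kb, 0.75), the potassium channel subunit KCNMB2 (0.973 and 0.578, 0.75), the RNA-editing relative ADARB2 (0.73), SORCS2 (0.71) and the transcription activator CAMTA1 (0.71). These 5 kept log2 ratios of 0.44 to 0.68 with the GC expectation.

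The members were also described in 6 lists by function, and the same gene can be in more than 1 list. Of 24 genes of common fragile sites, 21 were below their flanks and 6 (25%) were lower past 1.5-fold, with a median log2 ratio of -0.31 against -0.14 over all 306 members and -0.20 over all genes of at least 20 kb. The share past the fold was under the 29.7% of all such genes. The 6 were the neurodevelopmental gene AUTS2, the tumour suppressors FHIT and WWOX, IMMP2L of the mitochondrial inner membrane, NBEA of membrane traffic and DPYD, at log2 ratios of -0.80, -0.72, -0.59, -0.69, -1.11 and -0.87. The 3 that were not below were RORA, DAB1 and MAGI2. All 6 had a lower GC content than their flanks, and with the GC expectation the median of the list was -0.14, against 0.024 for all members, and 1 gene passed the fold.

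Of 28 genes of epithelial scaffolds, matrix and cytoskeleton, 22 were below their flanks and 8 (28.6%) passed the fold downwards, with none upwards and a median log2 ratio of -0.24, so both were near the 29.7% and -0.20 of all genes of at least 20 kb. They included the polarity genes PARD3 (-0.96) and PARD3B (-0.73), EXOC4 (-0.71) and EXOC6B (-1.25) of the exocyst, the focal adhesion protein LPP (-0.98) and the dystrophin relative UTRN (-0.75). With the GC expectation 2 of the 28 passed. THSD7B, a thrombospondin-repeat protein nearest the median of the list, had 0.918 per kb and flanks of 1.09. Among 39 genes of synaptic adhesion and axon guidance, 27 were below their flanks and 3 (7.69%) passed the fold downwards, under that 29.7%. The 3 were the teneurin TENM3 (-0.67), the cadherin CDH12 (-0.84) and CADM2 (-0.63). CDH4, the cadherin nearest the median of that list, had 0.978 per kb and flanks of 1.09.

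Of 18 genes of neurotransmitter receptors and channels 9 were below, none passed the fold downwards and the glutamate receptor gene GRID1 passed it upwards (0.69), with a median log2 ratio of 0.012, or 0.12 with the GC expectation. KCNIP4, a channel-interacting protein near that median, had 0.895 per kb and flanks of 0.862. For 31 signalling enzymes and growth factors the median was -0.046, with 3 lower (DOCK3, PTPRM and PRKCA) and 2 higher (PRKCE and PLCB1), and the phosphodiesterase PDE4B near the median had 0.637 per kb. For 29 RNA-binding proteins and transcription regulators the median was -0.16, with 5 lower and CAMTA1 higher, and CREB5, nearest that median, had 1.03 per kb. The 150 members in no list had a median of -0.074, with 17 lower and 7 higher. The share lower past the fold was 0% of receptors and channels, 9.68% of signalling enzymes, 17.2% of regulators and 11.3% outside the lists. The shares higher past it were 5.56, 6.45, 3.45 and 4.67%. All were under the 29.7% lower and 9.76% higher among all genes of at least 20 kb. None of these list values was tested. Genes named because they passed the fold were chosen after their values were seen.

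The spacing of positions inside long genes did not differ from that in shorter genes beyond the spread between chromosomes. Distances were taken between all pairs of positions within a gene body up to 1500 bp, and the pair count divided by its running mean over about 1 repeat. In long genes the maxima lay at 183, 373, 558, 745, 932, 1129 and 1298 bp, and in genes of 20-100 kb at 185, 375, 561, 751, 934, 1129 and 1302 bp. The slope of a line through these 7 maxima, the repeat length, was 186.8 bp in long genes (359140 pairs) and 186.9 bp in the shorter ones (717782 pairs). By chromosome it was 188 ± 3.2 bp and 187.2 ± 2.64 bp (SD, n = 20 chromosomes with at least 2000 positions in long genes). The difference of 0.788 ± 4.57 bp, with a range over chromosomes of -6.93 to 11.5 bp, did not exceed that spread (sign-flip permutation test, p = 0.455, adjusted 0.455). A difference of a few bp is within the spread between chromosomes and was not resolved. The most frequent distance between neighbours above 100 bp was 183 bp in both sets.

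**Figure D3:**
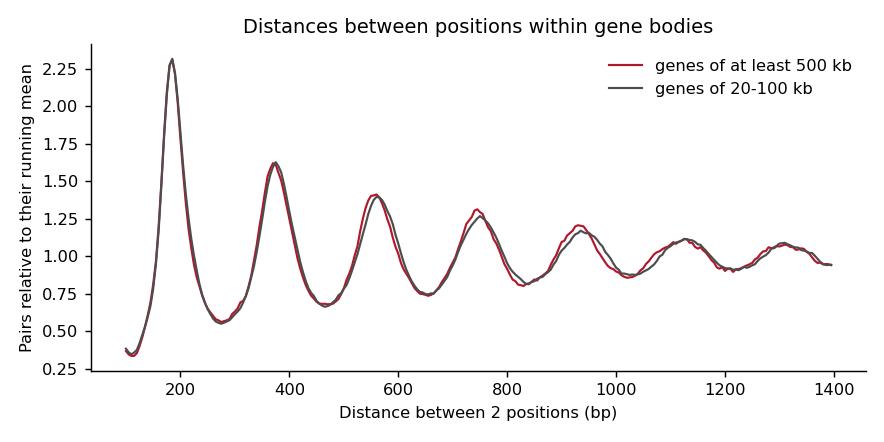
Number of pairs of positions relative to its running mean (vertical axis) against the distance between the 2 positions in bp (horizontal axis), within long genes and within genes of 20-100 kb, smoothed over 21 bp. Both curves rise and fall together, with first maxima at 183 and 185 bp and seventh maxima at 1298 and 1302 bp.

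The contrast between maxima and minima was measured as well. It was taken from the pair count relative to its running mean, at a maximum over midway to the maximum before it. This ratio was 2.87 in long genes and 2.92 in the shorter genes at the second maximum. At the fifth maximum it was 1.50 and 1.43. Within long genes the repeat length was 190.1 bp in the 5′ part of the gene cut into 3 equal parts, 187.1 bp in the middle part and 186.8 bp in the 3′ part. In genes of 20-100 kb the same parts had 188.25, 186.36 and 187.89 bp, so the 5′ part was highest in both sets. Each of these is 1 slope over summed pairs, given without a spread, and their differences were not tested. Long genes were also split into 3 sets of 102 by GC content. The repeat length was 188.5 bp in the poorest set (33.7 to 37.1% GC, median 0.575 positions per kb) and 185.2 bp in the middle one (0.833 per kb). In the richest it was 187.5 bp (39.9 to 56.6% GC, 1.12 per kb). The 3 repeat lengths had no order by GC content, while density rose from the poorest to the richest set.

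Along the gene, the density of long genes changed little and fell towards the middle. In 20 bins of equal width from the 5′ to the 3′ end, it was 0.843 per kb in the first bin, lowest at 0.791 from 50 to 55% of the length, and 0.951 in the last. GC content followed a like course, at 39.3%, 38.5% and 40.1% in those bins. Genes of 20-100 kb started near the same value, at 0.836 per kb, reached 0.951 by the third bin and 1.02 in the last. In 3 equal parts, long genes had 0.845, 0.809 and 0.877 positions per kb from 5′ to 3′, and the shorter genes 0.928, 0.974 and 1.02.

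**Figure D4:**
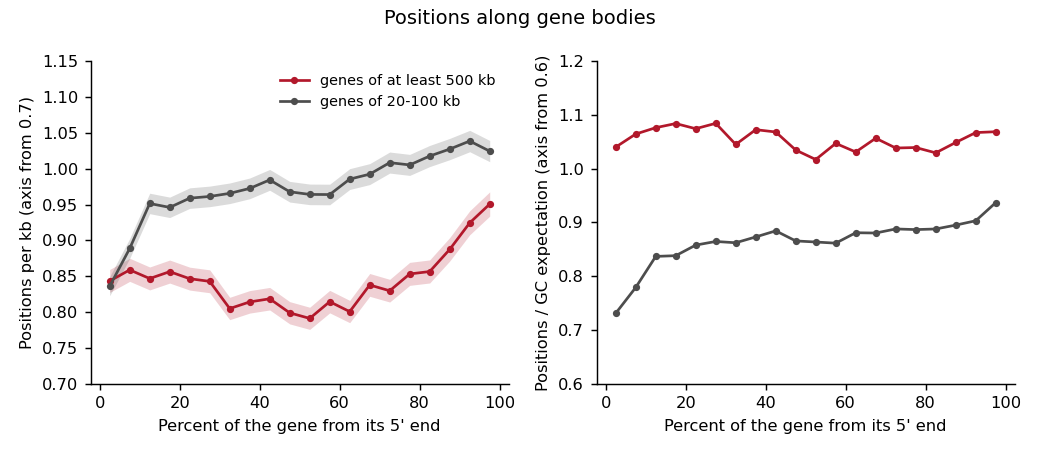
Positions per kb with exact 95% Poisson bands (left) and positions divided by the GC expectation (right) against percent of the gene from its 5′ end, in 20 bins, for long genes and genes of 20-100 kb, with vertical axes that do not start at 0. Long genes fall from 0.843 per kb to 0.791 near the middle and rise to 0.951, and shorter genes rise from 0.836 to 1.02.

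The outer parts, 5′ and 3′, of long genes did not differ beyond the spread between chromosomes, with a log2 ratio of -0.053 ± 0.18 (SD, n = 21), above 0 on 9 of 21 (sign-flip permutation test, p = 0.2, adjusted 0.229). Taking the outermost 10% on each side, the 3′ end was denser, with a log2 ratio of -0.17, below 0 on 15 of 21 chromosomes (permutation p = 0.00807). The ratio in long genes was higher than that in genes of 20-100 kb by 0.086 ± 0.17, on 14 of 21 chromosomes (permutation p = 0.0316, adjusted 0.0422). That difference varied with the processing. It was 0.16 with the GC expectation, above 0 on 19 of 21 chromosomes (permutation p = 3e-05). Without the first and last 10 kb of each gene, which are a larger part of a shorter gene, the difference came to 0.0053 (permutation p = 0.882). Leaving out chromosome 15 gave 0.080 (permutation p = 0.0522).

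Single genes were far less level than the average. Of the 306 members, 26 were denser past 1.5-fold in the 5′ part and 31 in the 3′ part, against 14.6% and 24% of all 11023 protein-coding genes of at least 20 kb, which hold fewer positions each. In NAV2, a cytoskeletal protein of growing neurites, density fell from 1.66 to 0.7005 and 0.300 per kb over the 5′, middle and 3′ parts. The gene NAV2 (ENSG00000166833) spans chr11:19350724-20121601 on the plus strand. Its outer parts had GC contents of 44.5 and 44.2%, and the log2 ratio of the outer parts was 2.44 with the GC expectation. PDE1C, a phosphodiesterase, went from 1.96 to 0.625 per kb between the outer parts and FRMD4A, a scaffold of epithelial polarity, from 1.06 to 0.396. NRXN3, a presynaptic neurexin, went from 1.13 to 0.495, and ENSG00000283563, a gene without a symbol, from 0.863 to 0.351.

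The opposite course was found in RBFOX3, a neuronal splicing factor, at 0.408 per kb in the 5′ part, 2.04 in the middle and 2.64 in the 3′ part. The gene RBFOX3 (ENSG00000167281) spans chr17:79089345-79611051 on the minus strand. Its 5′ part includes a single stretch of 60.8 kb at the 5′ end that holds no position. DENND1A, a regulator of vesicle traffic, rose from 1.09 to 2.24 per kb between the outer parts, the glutamate receptor gene GRM5 from 0.283 to 0.582, the channel subunit DPP6 from 0.707 to 1.44 and the carboxypeptidase AGBL4 from 0.6499 to 1.30. In DENND1A the GC content rose alongside, from 38.8 to 47.5%, and with the GC expectation the log2 ratio of 5′ to 3′ part was -0.19. That of AGBL4 went from -1.001 to -0.20 in the same way, with a GC content of 37.1 and 42.2% in the outer parts. The ratios of PDE1C and NRXN3 went from 1.64 and 1.19 to 1.09 and 0.69.

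Exons stood out from introns in long genes more than in shorter ones. The 2990 internal coding exons of 100-300 bp with introns of at least 1200 bp on both sides held 830 positions, or 1.75 per kb (exact 95% Poisson interval 1.64 to 1.88), and the introns 300 to 500 bp away held 0.808 per kb (0.758 to 0.860). The log2 ratio was 1.09 ± 0.53 (SD, n = 21 chromosomes) and was above 0 on 21 of 21 (sign-flip permutation test, p = 1e-05, adjusted 4e-05). In genes of 20-100 kb, 14820 such exons had 1.36 per kb and the introns beside them 1.00. The log2 ratio of long genes exceeded that of shorter genes by 0.67 ± 0.52, on 19 of 21 chromosomes (permutation p = 2e-05, adjusted 4e-05).

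Base composition differed in the same way. The exons had 48.4% GC in long genes and 48.2% in shorter genes, but the introns beside them had 37.9 and 43.0%. With the GC expectation the exon to intron log2 ratio of long genes was 0.33 ± 0.46, above 0 on 16 of 21 chromosomes (permutation p = 0.00279), and its excess over shorter genes was 0.028 ± 0.51, above 0 on 8 of 21 (permutation p = 0.837). When all exon bases were set against all intron bases, the density was 1.04 and 0.843 per kb in long genes, and the log2 ratio was 0.29 (permutation p = 0.00047).

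The exon profile was narrow in both sets. Over the 25 bp just upstream of the exon centre long genes reached 2.43 per kb, and 2.41 over the next 25 bp, against 1.92 and 1.75 in genes of 20-100 kb. In long genes it fell to 0.441 per kb from 150 to 125 bp before the middle, below the 0.808 of the introns further out. On the 3′ side it fell to 0.549 from 175 to 200 bp after the middle. Shorter genes fell to 0.596 per kb in the same 5′ bin and to 0.699 from 125 to 150 bp after the middle, below the 1.00 of their introns. The sequences printed above are examples of this placement, in which the position sits within 10 bp of the exon's middle.

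**Figure D5:**
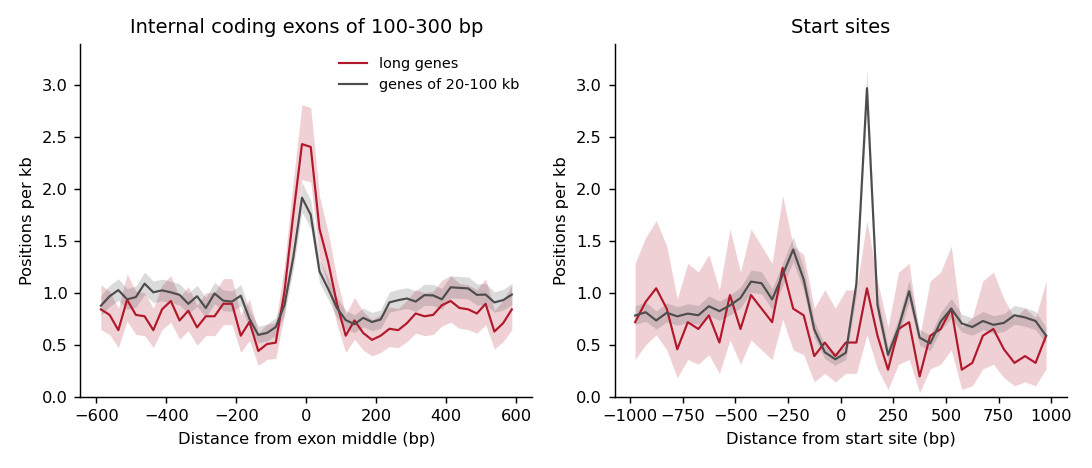
Positions per kb with exact 95% Poisson bands around the middle of internal coding exons (left, 25-bp bins) and around start sites (right, 50-bp bins), for long genes and genes of 20-100 kb. Over exons the long genes peak at 2.43 per kb, above 1.92 in shorter genes, and in the bin from 100 to 150 bp after the start site they have 1.05 per kb against 2.97.

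Individual genes held few exonic positions, so the pattern rests on their sum. Among the 15 members with 30 or more such exons, LRP1B had 56 exons with 9 positions (1.02 per kb, introns 0.357), the nuclear envelope protein SYNE1 47 exons with 13 (1.67, introns 0.479), and the calcium release channel RYR2 45 exons with 11 (1.60, introns 0.722). LAMA2, a laminin of basement membranes, had 14 positions in 43 exons (2.14 per kb, introns 0.174) and CSMD2 had 19 in 38 (2.96, introns 1.64). The order was turned in DNAH14, a dynein, with 3 positions in 38 exons (0.453 per kb, introns 0.789), in VPS13B of lipid transport (0.882 and 0.909) and in SDK1, a synaptic adhesion protein (0.909 and 1.92). In the other 12 of the 15 exons were the denser.

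Away from exons density was almost level over long distances. Within long genes, sequence up to 300 bp from an annotated exon of any gene had 0.785 positions per kb, and from 300 to 1000 bp 0.864. It was 0.861 from 1 to 3 kb, 0.851 from 3 to 10 kb, 0.843 from 10 to 30 kb and 0.830 from 30 to 100 kb. The 5.65 Mb further than 100 kb from any exon had 0.720 per kb (exact 95% Poisson interval 0.698 to 0.742) at 36.5% GC, which was 1.14 times the GC expectation. First introns of long genes had 0.843 per kb and all later introns 0.824.

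Downstream of the start site, long genes had fewer positions than shorter genes. From 100 to 200 bp after the start, 25 positions were found at 306 long genes, 0.817 per kb (exact 95% Poisson interval 0.529 to 1.21), and 1464 at the 7584 genes of 20-100 kb, 1.93 per kb (1.83 to 2.03). The difference was -1.30 ± 0.78 per kb (SD, n = 21 chromosomes), below 0 on 20 of 21. With 25 positions of long genes on 21 chromosomes, each value rests on very few, so 20 of 21 says little about evenness along the genome. The -1.30 weights chromosomes equally and so differs from the difference of the summed densities. This window was chosen after the profile had been seen, so its difference is given as a description. Long genes were lower further downstream as well, with 0.477 per kb (0.374 to 0.5999) from 500 to 1000 bp after the start against 0.723 (0.697 to 0.751). Around the start itself the intervals of the sets overlapped. From -200 to +50 bp long genes had 0.523 per kb (0.374 to 0.712) and the shorter genes 0.599 (0.564 to 0.634).

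A similar share of promoters was rich in CpG, taking 250 bases before to 50 after the start where GC content reached 55% and CpG pairs exceeded 0.65 of the number that the base content predicts: 197 of 306 long genes (64.4%) and 67.1% of the shorter genes. Among those, the window from 100 to 200 bp had 0.558 positions per kb in long genes (11 positions, 0.279 to 0.999) and 1.88 in shorter genes. At the other promoters it had 1.28 per kb (14 positions, 0.702 to 2.16) and 2.04.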

How the data were processed

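The deposited list gives genome positions, and its unit is other than a count or a signal: per the deposited values every row is an interval of 1 bp on hg38 with no score. The authors aligned reads with Bowtie2, per the submitters' processing notes. The caller, thresholds, fragment filter and whether batches were pooled are not given in the sources used here. Of 2634347 rows, 4 repeats were dropped. Counts were divided by determined bases. Exons and start sites were those of the MANE Select or else the canonical transcript. Flanks needed 100 kb of determined sequence, a pseudocount of 0.5 was added per gene and for exons, and chromosomes with 10 or more exons entered the exon tests. Genes were named by rank (density, length, contrast with flanks, trend) or as nearest a list's median. The members and lists were chosen with earlier results of these data known, and the start-site test after its profile was seen. Sign-flip tests used 100000 draws. The steps were tested on simulated data. Software was Python 3.11.15, numpy 2.4.6, scipy 1.17.1 and pandas 2.3.3.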

Additional observations from a re-analysis of the deposited data

Results flagged for a closer look

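Chromosome X was outside the comparisons, and its 13 protein-coding genes of at least 500 kb held 5272 positions. That is 0.417 per kb over 12.6 Mb, against 0.536 in 252 X-linked genes of 20-100 kb. DMD, the dystrophin gene, had 0.354 per kb and flanks of 0.424, and PCDH11X had the lowest value at 0.113 per kb, with flanks of 0.124. Of the 13 genes 12 were below their flanks, DACH2 being the exception. The difference from autosomes was not tested here.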

How the results depend on the processing

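Over 8 comparisons, 83 alternatives were computed: 68 kept the direction and the side of the threshold, 7 no longer passed, 1 newly passed and 7 reversed. Of the 68, 8 belong to the start-site window, which was chosen after its profile was seen. That window is also 1 of the 8 tests used for the adjusted p-values. With the GC expectation the log2 ratio of long to shorter genes reversed to 0.23 (0.12 against genes of 100-500 kb and 0.060 against sequence outside every gene, both added after seeing the data), that to the flanks to 0.0014 and that of the 5′ to the 3′ part to 0.034, while the excess in exons fell to 0.028 and no longer passed. The ratio to shorter genes also no longer passed with the median gene (-0.024) or against sequence outside every gene (-0.066). The difference in repeat length was -1.28 bp with positions under 100 bp apart merged and -1.02 bp with the first 5 maxima. The outermost 10% gave -0.17 for the trend in long genes, which then passed. The difference in trend was 0.16 with the GC expectation and no longer passed with merged positions (0.075), without chromosome 15 (0.080), without the first and last 10 kb (0.0053) or with the outermost 10% (0.099). The cause of these changes was not tested. Read depth is unknown, and no batch could be left out. No paired analysis was possible because the list does not separate the batches.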

Other observations

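Stretches without any position were rare in long genes. Of 25229 windows of 10 kb in them, 181 (0.717%) were empty, against 1.70% of 31218 windows in genes of 20-100 kb, and the mean was 8.46 ± 5.07 (SD) and 9.75 ± 6.86 positions per window. The longest stretch without a position had a median of 11.3 kb per member. In RBFOX3, singled out after its values were seen, it was 60.8 kb long (chromosome 17, 79550280 to 79611051) and contains the first exon, where the gene's density of 1.69 per kb would give 103.0 positions. A count of 0 allows up to 0.0494 per kb there. Over chromosomes 1-22 there were 258 stretches without a position over 50 kb and 112 over 100 kb, outside the left-out part of chromosome 15.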
